A study of Rattus norvegicus with 9 samples.

Results

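The neuropeptide precursor genes of dorsal horn neurons were described in rat spinal cord by RNA sequencing: Tac1, Tac3, Penk, Pdyn, Sst, Npy, Nts, Grp, Cck and Gal. They were chosen by gene symbol, as 10 of the 30507 rows of the count table, and each symbol stood on 1 row. All 10 had reads in all 9 libraries and all 10 passed the filter on low counts in each comparison. The tissue was wild-type spinal cord of female Sprague-Dawley rats taken 35 days after surgery, from the segments around the T10 vertebra. There were 3 rats in each of 3 groups. The Sham group, which the sample labels call untreated and the study's methods describe as laminectomy alone, had no contusion. The SCI group had a contusion at T10 and carried a connector plug without an electrode. The SCI + SCS group had the same contusion, an epidural electrode and spinal cord stimulation at 10 kHz and 0.12 mA for 2 h per day from day 1 after surgery. Contused rats with an electrode but no current were not analysed here, so implantation and current cannot be told apart.

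Neuropeptides are cut from larger precursors, packed into dense-core vesicles and released alongside fast transmitters, and they act mostly on G protein-coupled receptors. The dorsal horn is the first central relay for touch, itch, temperature and pain, and its local excitatory and inhibitory interneurons are commonly classed by the peptides they make. Tachykinins, gastrin-releasing peptide, neurotensin and cholecystokinin are known mainly from excitatory dorsal horn neurons, whereas enkephalin, dynorphin, neuropeptide Y and galanin are known for dampening transmission there.

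The libraries held between 62844376 and 88358570 counts, and the labels name no division of the libraries into batches. Levels are given as CPM, the counts scaled to a common library size, after TMM normalization over all 9 libraries. A gene was called changed when edgeR's quasi-likelihood test gave an absolute log2 fold change (log2FC) above 1 and a Benjamini-Hochberg adjusted p under 0.05 over all genes tested. The Hox genes of the spinal level were present in every group, with at most 1 of 14 at 0 counts in any library. Their sum was 258 to 518 CPM in Sham, 202 to 237 CPM in SCI and 275 to 310 CPM in SCI + SCS. Their presence does not show that the same segments were taken. All 24 pan-neuronal genes were detected in every library. CPM is relative to the other RNA of a library. In a tissue extract, fewer neurons, less RNA per neuron and more RNA from other cells cannot be told apart.

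Several libraries stood apart from their groups. Sham replicate 2 held 337 CPM over 11 primary afferent neuron markers, against 11.7 and 12.2 CPM in the other Sham libraries, 10.9 to 12.3 CPM in SCI and up to 28.5 CPM in SCI + SCS. The nociceptor channel Scn10a had 55.3 CPM in Sham replicate 2, 0.157 CPM in Sham replicate 1 and 0.846 CPM in Sham replicate 3. Tac1 and Gal are also made by sensory neurons, and both were highest in that library among the Sham samples. SCI replicate 1 held 4434 CPM over 14 skeletal muscle genes and SCI replicate 3 held 1318 CPM, against 42.3 CPM in SCI replicate 2 and at most 149.5 CPM in any Sham or SCI + SCS library. Fibroblast and meningeal markers summed to between 1192 and 11736 CPM in Sham, 17798 and 40059 CPM in SCI, and 9211 and 17601 CPM in SCI + SCS. Macrophage and microglia markers summed to 1004 to 1530 CPM in Sham and 6107 to 7146 CPM in SCI. In SCI + SCS they summed to 4520 to 5292 CPM. The part of these libraries and markers in the results below was not tested. Values without a library that stood apart are given where they changed a call of a member or moved its difference most.

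Levels between genes were compared on the authors' FPKM, which corrects for transcript length. Somatostatin (Sst) was the most abundant precursor in Sham, with a mean of 164 FPKM ± 20.1 (SD, n = 3), and proenkephalin (Penk) followed with 108 ± 29.2. Cck had 59.5 ± 24.6 FPKM, Npy 43.8 ± 6.53, Tac3 27.3 ± 5.86, Tac1 22.9 ± 6.80 and Gal 20.1 ± 4.27. Nts with 9.50 ± 1.33 FPKM, Pdyn with 6.38 ± 1.42 and Grp with 1.92 ± 0.544 were the least abundant. The ranges of the Sham libraries overlapped between the neighbours Penk and Cck, Cck and Npy, Tac3 and Tac1, and Tac1 and Gal. Within each Sham library, Penk was above Cck, Cck above Npy and Tac3 above Tac1. Of these neighbours, only Tac1 and Gal changed order between libraries. Sst and Penk held the first and second place, and Nts, Pdyn and Grp the last 3 places, in the SCI and SCI + SCS groups as well. Sst accounted for 35.4% of the members' summed mean FPKM in Sham, 36.8% in SCI and 36.8% in SCI + SCS, and Tac1 for 4.94%, 2.75% and 3.46%.

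In CPM, the group means of the 10 transcripts were lowest in SCI and highest in Sham, with SCI + SCS between them, whereas relative to pan-neuronal transcripts all 10 means were higher in SCI than in Sham. Their summed level was 398 to 614 CPM in the Sham libraries, 171 to 251 CPM in SCI and 344 to 422 CPM in SCI + SCS. Against Sham, 8 of the 10 were called lower in SCI, with Npy and Gal the exceptions. Of all 17822 genes tested, 13.6% were called lower. At an adjusted p under 0.05 with no limit on fold change, 9 of the 10 were lower, against 25% of all genes. At an unadjusted p under 0.05 the count was also 9 of the 10, against 28.6% of all genes. The SCI libraries lay entirely below the Sham libraries for 9 of the 10, against 31% of all genes, and Gal was the one that overlapped. The median log2FC of the 10 was −1.23, and the median of all genes was 0.02.

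**Figure D1:**
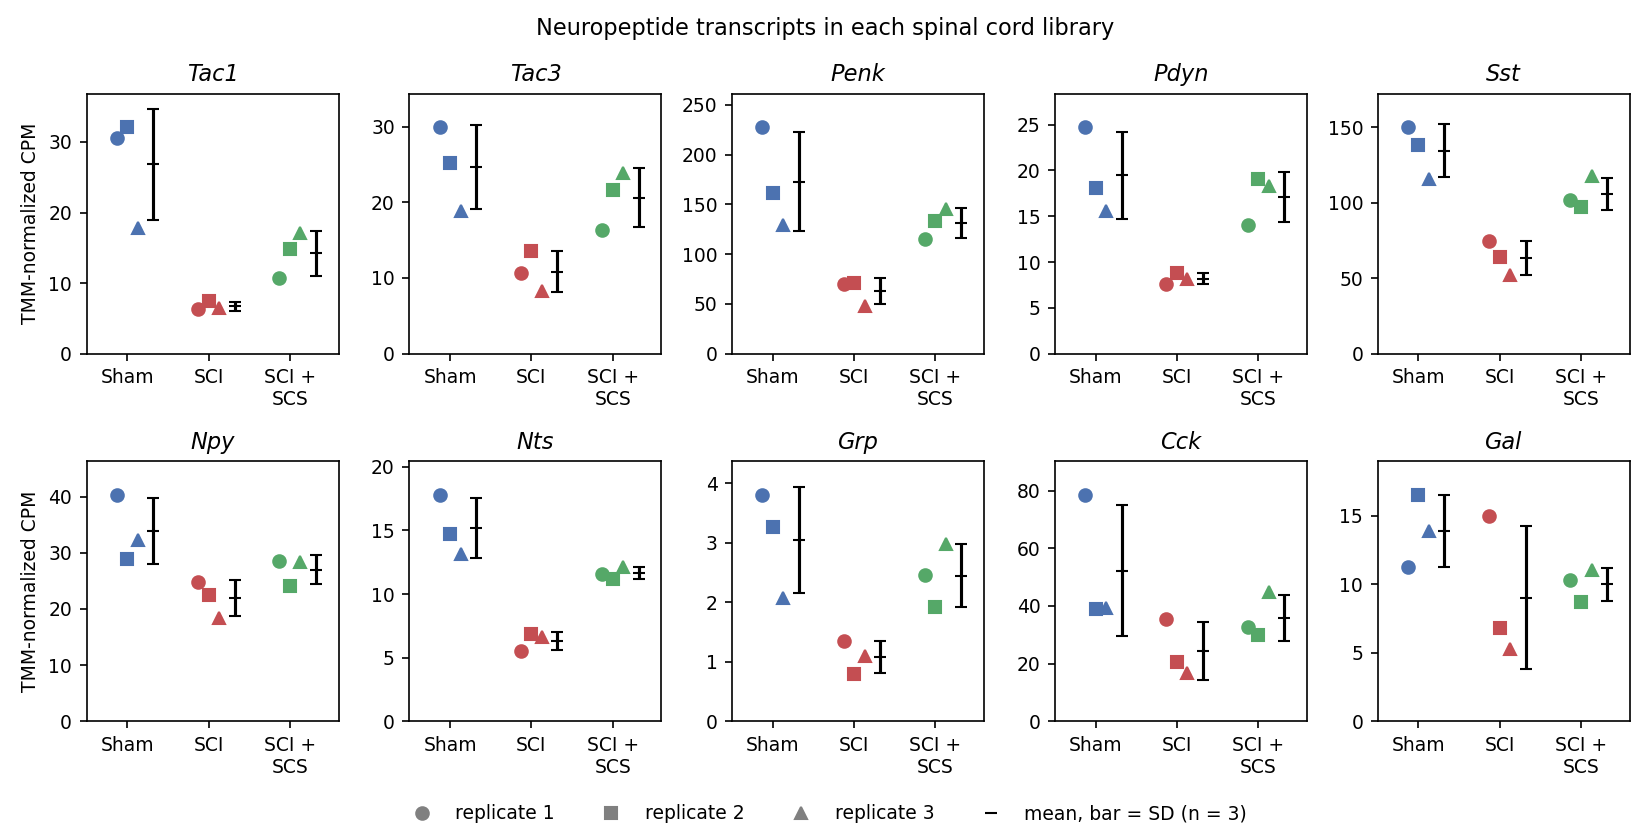
TMM-normalized CPM (y axis, from 0) of each neuropeptide gene in the 9 libraries, grouped on the x axis as Sham, SCI and SCI + SCS; marker shapes are replicates, and the tick and bar beside each group are the mean and SD (n = 3). The SCI libraries lie below the Sham libraries for every gene except Gal, and the SCI + SCS libraries lie above the SCI libraries for all but Npy, Cck and Gal; relative to pan-neuronal transcripts the members' means were higher in SCI than in Sham.

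The tachykinin genes encode substance P and neurokinin A (Tac1) and neurokinin B (Tac3). Tac1 had 30.6, 32.1 and 17.8 CPM in Sham replicates 1, 2 and 3, 6.29, 7.46 and 6.42 CPM in SCI, and 10.8, 14.9 and 17.1 CPM in SCI + SCS. The 3 groups did not overlap, although Sham replicate 3 lay only slightly above SCI + SCS replicate 3. Tac1 had the largest fall of the 10 after contusion, with a log2FC of −2.01 (SE 0.25, edgeR adjusted p = 0.00198), and its mean in SCI was 25.1% of the Sham mean. Without Sham replicate 2, the library with afferent markers, the log2FC of Tac1 was −1.87 (edgeR adjusted p = 0.0116). Tac1 lies at 35679704 to 35687178 on the plus strand of chromosome 4 in the authors' table, which types its row as a pseudogene although the other 9 are typed as protein coding, and no other row overlaps any of the 10.

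Tac3 had 29.9, 25.2 and 18.8 CPM in Sham, 10.7, 13.6 and 8.28 CPM in SCI, and 16.3, 21.7 and 23.9 CPM in SCI + SCS. The SCI libraries were the lowest 3, and the other groups overlapped each other. Its log2FC in SCI against Sham was −1.20 (SE 0.24, edgeR adjusted p = 0.0082).

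The opioid precursors are Penk, the source of the enkephalins, and Pdyn, the source of the dynorphins. Penk had 227, 161 and 129 CPM in Sham, 70.1, 71.3 and 48.2 CPM in SCI, and 115, 133 and 145 CPM in SCI + SCS. Every SCI library was below every library of the other groups, and SCI + SCS overlapped Sham. Penk fell by 1.47 on the log2 scale in SCI against Sham (SE 0.25, edgeR adjusted p = 0.0048). Pdyn had 24.7, 18.1 and 15.6 CPM in Sham, 7.60, 8.85 and 8.11 CPM in SCI, and 14.0, 19.0 and 18.3 CPM in SCI + SCS. Its SCI libraries were close together and far below the rest. Pdyn fell by 1.27 (SE 0.20, edgeR adjusted p = 0.0034).

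Nts, Grp and Cck encode neurotensin, gastrin-releasing peptide, a transmitter of itch, and cholecystokinin. Nts had 17.8, 14.7 and 13.1 CPM in Sham, 5.51, 6.83 and 6.59 CPM in SCI, and 11.6, 11.2 and 12.1 CPM in SCI + SCS. The groups did not overlap, and the stimulated libraries were in the middle. Nts fell by 1.29 (SE 0.17, edgeR adjusted p = 0.0023). Grp, the least abundant of the 10, had 3.80, 3.26 and 2.07 CPM in Sham, 1.35, 0.795 and 1.10 CPM in SCI, and 2.46, 1.92 and 2.98 CPM in SCI + SCS. Stimulated and Sham libraries overlapped, and the SCI libraries were below both. Grp fell by 1.51 (SE 0.33, edgeR adjusted p = 0.0109). Cck had 78.6, 39.1 and 39.2 CPM in Sham, 35.6, 20.4 and 16.9 CPM in SCI, and 32.5, 29.8 and 44.9 CPM in SCI + SCS. Sham replicate 1 had about the level of the other Sham libraries combined, and SCI replicate 1 was above the other SCI libraries. The Cck log2FC was −1.12 (SE 0.39, edgeR adjusted p = 0.0489), and the call was lost without Sham replicate 1 (−0.71, adjusted p = 0.122), Sham replicate 2 (−1.30, adjusted p = 0.0613), SCI replicate 2 (−1.02, adjusted p = 0.137) or SCI replicate 3 (−0.92, adjusted p = 0.137).

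Sst, Npy and Gal encode somatostatin, neuropeptide Y and galanin. Sst had 150, 138 and 116 CPM in Sham, 74.5, 64.2 and 52.2 CPM in SCI, and 102, 97.2 and 118 CPM in SCI + SCS. The SCI libraries were lowest, and SCI + SCS replicate 3 was just above Sham replicate 3. Sst fell by 1.10 (SE 0.17, edgeR adjusted p = 0.0033), and by 0.98 without SCI replicate 3, which is under the fold limit. Npy had 40.3, 28.9 and 32.3 CPM in Sham, 24.8, 22.6 and 18.4 CPM in SCI, and 28.5, 24.1 and 28.4 CPM in SCI + SCS. The Npy groups lay close together, with SCI below Sham and overlapping SCI + SCS. Its log2FC of −0.65 (SE 0.17, edgeR adjusted p = 0.0204) passed the limit on p but not that on fold, and it missed the limit on p without SCI replicate 2 (edgeR adjusted p = 0.0522) or SCI replicate 3 (edgeR adjusted p = 0.0586).

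Gal was the exception of the set. It had 11.3, 16.5 and 13.9 CPM in Sham, 14.99, 6.78 and 5.31 CPM in SCI, and 10.3, 8.68 and 11.1 CPM in SCI + SCS. SCI replicate 1 was at the level of the Sham libraries, and the other SCI libraries were lower than all the rest. The log2FC over all 6 libraries was −0.64 (SE 0.40, edgeR adjusted p = 0.218). Without SCI replicate 1, the library richest in muscle transcripts, it was −1.22 (edgeR adjusted p = 0.0127), which makes 9 of 10 called. Without Sham replicate 2 the log2FC of Gal was −0.50 (edgeR adjusted p = 0.425), and 7 of 10 were called, since Cck was also lost. Without SCI replicate 3 it was −0.38 (edgeR adjusted p = 0.452).

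The comparison of SCI + SCS with SCI asks which transcripts differed in contused cords that were stimulated. All 10 had a higher mean CPM with stimulation, from a log2FC of 0.16 for Gal to 1.19 for Grp, but under edgeR none passed the adjusted limits, and scaled on pan-neuronal transcripts 6 of the 10 differences were negative. In edgeR, 1 gene of 17663 was called higher, which is 0.00566%. At an unadjusted p under 0.05, 7 of the 10 were higher, against 13.3% of all genes. DESeq2 on the same libraries called 4 of the 10 higher (Tac1, Penk, Pdyn and Grp), against 2.54% of all genes it tested, and 7 of the 10 passed an adjusted p under 0.05 there, against 9.03%. The stimulated libraries lay entirely above the SCI libraries for 7 of the 10, against 15.7% of all genes, with Npy, Cck and Gal the exceptions. The SCI libraries are shared with the comparison against Sham, so the opposite signs of these comparisons are not independent.

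Among the tachykinins, the log2FC with stimulation was 1.09 for Tac1 (SE 0.19, edgeR adjusted p = 0.0719) and 0.94 for Tac3 (SE 0.22, edgeR adjusted p = 0.0885). The opioid precursors had 1.06 for Penk (SE 0.17, edgeR adjusted p = 0.0719) and 1.07 for Pdyn (SE 0.15, edgeR adjusted p = 0.0719). These values missed the limit in edgeR. Grp had 1.19 (SE 0.29, edgeR adjusted p = 0.0931), Nts 0.89 (SE 0.14, edgeR adjusted p = 0.0719) and Cck 0.56 (SE 0.29, edgeR adjusted p = 0.288). Sst had 0.74 (SE 0.15, edgeR adjusted p = 0.0782), Npy 0.31 (SE 0.13, edgeR adjusted p = 0.216) and Gal 0.16 (SE 0.37, edgeR adjusted p = 0.832). Without SCI replicate 1, the log2FC of Cck was 0.93 (edgeR adjusted p = 0.0689), and without SCI replicate 3 it was 0.35 for Cck and 0.19 for Npy. Leaving out SCI + SCS replicate 1 brought Tac1 (1.26) and Pdyn (1.20) past both limits, each with an edgeR adjusted p of 0.0499. The sign of Gal depended on the library left out, with −0.02 without SCI replicate 2, −0.12 without SCI replicate 3 and 0.72 without SCI replicate 1.

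**Figure D2:**
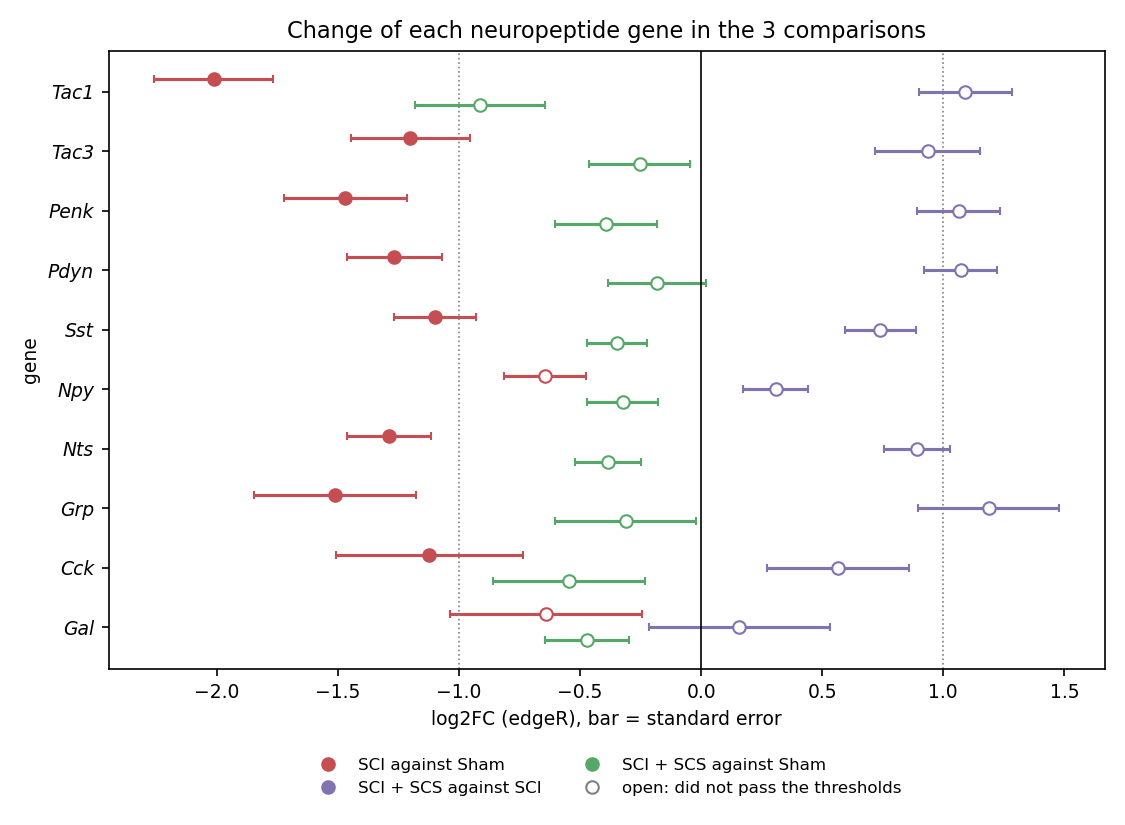
The log2FC of each gene (x axis, edgeR, bars are standard errors, 3 libraries per group) in the 3 comparisons, with filled points past both limits and dotted lines at a log2FC of 1 in either direction. SCI against Sham runs from −2.01 to −0.64 with 8 filled points, SCI + SCS against SCI from 0.16 to 1.19 with none, and SCI + SCS against Sham from −0.91 to −0.18 with none; scaled on pan-neuronal transcripts, the members were positive in both comparisons with Sham and 6 were negative in SCI + SCS against SCI.

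Against Sham, the stimulated cords had lower mean CPM for all 10, from a log2FC of −0.91 for Tac1 to −0.18 for Pdyn, and higher values for all 10 when scaled on pan-neuronal transcripts. None of the 10 was called in edgeR or in DESeq2, against 5.44% of all genes called lower in edgeR, and 4 of the 10 were lower at an unadjusted edgeR p under 0.05, against 23.1% of all genes. Tac1 alone had an adjusted p under 0.05 (SE 0.27, edgeR adjusted p = 0.0426), against 16.2% of all genes, and without Sham replicate 3 it was called (−1.14, edgeR adjusted p = 0.0102). Without Sham replicate 2, the log2FC of Tac1 was −0.76 (edgeR adjusted p = 0.132). In 4 of the 10 genes, Tac1, Npy, Nts and Gal, the stimulated libraries lay entirely below the Sham libraries, against 26% of all genes. As a share of the Sham mean, the stimulated group stood at 53.1% for Tac1, 68.4% for Cck, 72.02% for Gal, 76.0% for Penk, 76.5% for Nts, 78.5% for Sst, 79.7% for Npy, 80.4% for Grp, 83.7% for Tac3 and 87.9% for Pdyn. The matching shares in SCI were 25.1%, 46.5%, 64.9%, 36.6%, 41.4%, 47.3%, 64.7%, 35.5%, 44.0% and 42.1%.

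The 10 genes were set beside a list of 24 pan-neuronal genes. The list summed to between 9260 and 18805 CPM in Sham, 1915 and 4800 CPM in SCI, and 4783 and 7403 CPM in SCI + SCS. In SCI against Sham, 23 of its 24 genes were called lower, against 13.6% of all genes. Its largest falls were in the dendritic protein gene Map2 (−3.74), the synaptic vesicle calcium sensor gene Syt1 (−3.51) and the neurofilament gene Nefl (−3.13). The median log2FC of the pan-neuronal list was −2.05 after contusion, 0.91 with stimulation against SCI, and −1.12 with stimulation against Sham, while the members' medians were −1.23, 0.91 and −0.37.

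The level of each member was then expressed relative to the mean log2 level of the pan-neuronal list in the same library. On this scale the means of the 10 members were higher in SCI than in Sham, by 0.20 for Tac1, 0.67 for Grp, 0.72 for Penk, 0.89 for Nts, 0.93 for Pdyn, 0.97 for Tac3, 1.06 for Cck, 1.07 for Sst, 1.40 for Gal and 1.53 for Npy. The SCI and Sham libraries overlapped for Tac1 and Nts and did not for the other 8. The share of all genes without overlap on this ratio was not computed for any comparison. With stimulation against SCI the differences ran from −0.73 for Gal and −0.72 for Npy, which did not overlap, to 0.17 for Grp, and the other 8 overlapped. Stimulated against Sham cords differed by 0.24 for Tac1 to 0.96 for Pdyn. When edgeR itself was scaled on the pan-neuronal list, Npy (1.38, edgeR adjusted p = 0.0073) and Gal (1.19, edgeR adjusted p = 0.0247) were called higher in SCI than in Sham and no member was called lower. On that scaling the median of all genes moved to 2.06, against 0.86 for the 10 members. There 81.4% of all genes were called higher, and Npy and Gal still lay below the median gene. In SCI + SCS against SCI the same scaling moved the median of all genes to −1.03, and in SCI + SCS against Sham to 1.002.

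**Figure D3:**
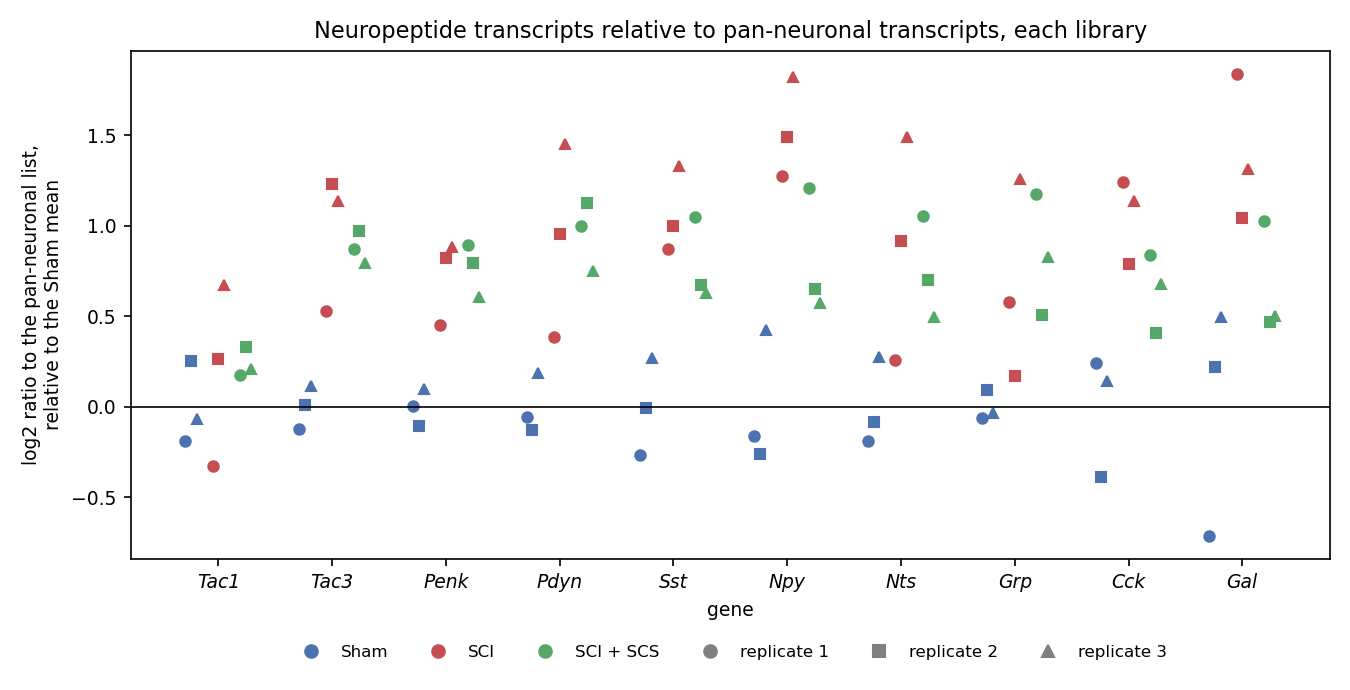
The log2 ratio of each gene to the mean of 24 pan-neuronal genes in the same library (y axis), relative to the Sham mean, with colours for groups and shapes for replicates. Tac1 averages 0.20 above Sham in SCI, while Npy and Gal lie 1.53 and 1.40 above it, and both have lower ratios in SCI + SCS than in SCI; in CPM the SCI libraries lay below Sham for Tac1 and Npy and overlapped Sham for Gal.

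The order of the members within each group was set beside the pan-neuronal level of the library. In Sham, replicate 1 had the most pan-neuronal transcripts and the highest level of 8 of the 10 members, and replicate 3 had the least and the lowest level of 7. In SCI, replicate 1 was richest and held the highest level of 5 members, and replicate 3 was poorest and held the lowest level of 6. Tac1, Pdyn and Nts were lowest in SCI replicate 1, the richest of that group. In SCI + SCS, replicate 3 was richest and held the highest level of 8, and replicate 1 was poorest and held the lowest level of 4. The share of all genes with their highest or lowest level in these libraries was not computed, so these counts are a description only. Over the 9 libraries, which include the group differences, Pearson's r between a member's log2 level and the pan-neuronal mean ran from 0.71 for Gal to 0.97 for Sst. The most like gene among 14315 compared over the same 9 libraries was Frmpd4 for Tac1 (r = 0.996), Grin2d for Penk (0.997), Nol4 for Pdyn (0.986), Mtus2 for Sst (0.990), Mapk8 for Npy (0.977), Magel2 for Nts (0.993), Zfp583 for Grp (0.977), Fam13c for Cck (0.989) and Grhl1 for Gal (0.947). Gal was the least well matched of the 10.

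The cAMP response element is a promoter sequence bound by CREB family factors and was first described in the somatostatin gene. RefSeq start-site windows on GRCr8, each of 300 bases with 250 before and 50 from the start on, were given for 7 members, Tac1, Pdyn, Sst, Npy, Nts, Grp and Gal. The full element TGACGTCA, searched on both strands, was in 1 of the 7 windows, against 1.83% of 33469 windows of all genes. Its shorter core TGACG, read on the other strand as CGTCA and also counted within the full element, was in 5 of the 7, against 21.2% of all windows. Of these 5, Tac1, Sst, Nts and Grp were lower in SCI in CPM without overlap of the libraries, whereas Gal overlapped. The 30 bases around every match are shown. Capitals mark the match and each is read 5′ to 3′ along the gene.
Sst, chr11:90461537-90461566, plus strand: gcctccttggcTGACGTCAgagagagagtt
Tac1, chr4:36645364-36645393, plus strand: ttccctaaaattgCGTCAtttcgaacccaa
Nts, chr7:39461043-39461072, minus strand: aattagggaagatCGTCActttcaatcaag
Grp, chr18:61658556-61658585, plus strand: cgctatagggagaCGTCAgtgtgctcaggt
Gal, chr1:210084619-210084648, minus strand: ggcgctgagcgggTGACGcggcagctccca
The match began 206 bases before the annotated start in Tac1, 171 in Nts, 86 in Grp and 63 in Gal, and at base 3 after it in Sst. Pdyn and Npy held neither set of letters in their windows, and both were also lower in SCI in CPM without overlap of the libraries. A match describes letters only, and these positions are on another build than the authors' table.

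The receptors of these peptides were measured in the same libraries. Of 24 receptor genes, 23 were in the table and 17 were tested in SCI against Sham. Of these, 9 were called lower, against 13.6% of all genes, and 1 higher, against 2385 of all 17822 genes. The median log2FC of the 17 was −2.03. On the pan-neuronal scaling 2 were called lower and 6 higher, against 81.4% of all genes called higher. The summed level of the 23 receptors overlapped between the groups. It was 222 to 294 CPM in Sham, 179 to 356 CPM in SCI and 270 to 344 CPM in SCI + SCS. None of the 9 receptors called lower was above 11.7 CPM in any library, so other receptors held most of this sum. The neurokinin receptors differed among themselves. Tacr1, the substance P receptor, had 5.72, 3.18 and 2.05 CPM in Sham, 0.419, 0.795 and 0.838 CPM in SCI, and 0.898, 1.28 and 1.44 CPM in SCI + SCS, without overlap, and fell by 2.43 (SE 0.48, edgeR adjusted p = 0.0073). Tacr3, the neurokinin B receptor, fell by 3.68 (SE 0.42, edgeR adjusted p = 0.0017), from 1.32 to 1.85 CPM in Sham to 0.076 to 0.184 CPM in SCI. Tacr2, the neurokinin A receptor, was the receptor called higher, with 1.10 (SE 0.37, edgeR adjusted p = 0.0443), and its SCI libraries held 1.01 to 1.64 CPM. That call was lost without Sham replicate 2 and without SCI replicate 1.

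The other receptors called lower were the somatostatin receptors Sstr1 (−2.03) and Sstr2 (−1.58), the neuropeptide Y receptors Npy2r (−4.72) and Npy5r (−2.41), the neurotensin receptor Ntsr1 (−2.24), the cholecystokinin receptor Cckbr (−2.50) and the galanin receptor Galr1 (−2.54), whose call was lost without Sham replicate 2 (edgeR adjusted p = 0.0728). Npy2r had no reads in SCI replicates 2 and 3 and 0.051 CPM in SCI replicate 1, so its fold change rests on very few reads. Grpr, the receptor of gastrin-releasing peptide, did not pass the filter. It had 0.063 to 0.159 CPM in Sham and no reads in the 6 contused libraries, where 3 counts, the limit that a count of 0 allows, correspond to 0.0351 to 0.0477 CPM before TMM scaling. With stimulation against SCI, 15 receptors were tested, 12 were positive, none was called in edgeR and the median was 0.70, while on the pan-neuronal scaling 10 were negative. At an unadjusted p under 0.05 edgeR gave 5 higher and 2 lower, against 13.3% of all genes higher and 4274 of 17663 in either direction. DESeq2 called 4 higher, against 2.54% of all genes it tested. Tacr3 had the largest of these differences, 2.77 (SE 0.46, edgeR adjusted p = 0.0719). Against Sham, Tacr1 (−1.59), Npy5r (−1.21) and Cckbr (−1.78) were called lower in the stimulated cords in CPM. These were 3 of 18 tested, against 5.44% of all genes, and none was called lower without Sham replicate 2 or on the pan-neuronal scaling.

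The machinery that makes and stores peptides moved in the same direction as the precursors in CPM. Of 17 genes for processing enzymes and dense-core vesicle proteins, 11 were called lower in SCI against Sham, against 13.6% of all genes. All 17 were negative, with a median of −1.61, whereas 14 were positive on the pan-neuronal scaling. The largest falls were in the granule protein gene Chgb (−2.33), the vesicle priming gene Cadps (−2.25) and the prohormone convertase gene Pcsk2 (−2.10). With stimulation against SCI, all 17 were positive in CPM with a median of 0.75 and none was called in edgeR, while 11 were negative on the pan-neuronal scaling. At an unadjusted p under 0.05, 14 were higher in edgeR, against 13.3% of all genes. DESeq2 called 4 of the 17 higher, against 2.54% of all genes it tested. Against Sham, 4 of the 17 were called lower after stimulation, against 5.44% of all genes. Among them were Pcsk1 (−1.35), the other main prohormone convertase, Cadps (−1.27) and Scg5 (−1.10), a chaperone of Pcsk2. In contrast, 1 of the 17 was called without Sham replicate 2 and none was called lower on the pan-neuronal scaling.

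Enzymes that degrade peptides were also listed. Of 13 tested, 2 were called higher in SCI against Sham, the aminopeptidase genes Anpep (3.42) and Enpep (1.49), and none lower. Of all 17822 genes tested, 2385 were called higher, a share close to 2 of 13. The median of the 13 was 0.18. The call of Enpep was lost without Sham replicate 2 (1.36, edgeR adjusted p = 0.0643). Anpep was still called higher in SCI + SCS against Sham (2.35). On the pan-neuronal scaling all 13 were called higher in SCI against Sham, as were 81.4% of all genes. The aminopeptidases are also made outside neurons, and fibroblast and meningeal markers were higher in the same libraries, as given above. Whether those cells carried the difference was not tested.

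Among 23 other neuropeptide genes tested, 4 were called higher in SCI against Sham and 6 lower, with a median of −0.82. Of all 17822 genes tested, 2385 were called higher and 2415 lower. On the pan-neuronal scaling 13 of the 23 were called higher, against 81.4% of all genes, and none lower. The largest called rises in CPM were the urocortin genes Ucn (4.15) and Ucn2 (3.25) and the third tachykinin gene Tac4 (3.44), so Tac4 moved opposite to Tac1 and Tac3. The same 3 genes were the ones called higher in SCI + SCS against Sham, with 4.59, 2.93 and 2.71. Of all 17640 genes tested, 1108 were called higher there. Tac4 lost that call without Sham replicate 2 (edgeR adjusted p = 0.0573). Calca (−2.82) and Calcb (−2.24), which encode calcitonin gene-related peptide and are typical of sensory neurons, and Vip (−1.78) had the largest called falls. Without Sham replicate 2, where sensory neuron markers were high, 4 of the list were called lower, and the log2FC was −2.03 for Calca (edgeR adjusted p = 0.0237) and −1.78 for Calcb (edgeR adjusted p = 0.0505).

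Markers of excitatory and of inhibitory dorsal horn neurons had negative median differences in SCI against Sham in CPM, but on the pan-neuronal scaling their medians were 0.62 and 0.06. Of 14 excitatory markers tested in SCI against Sham, 7 were called lower, against 13.6% of all genes, and the median of the 14 was −1.50. Those called included the glutamate transporter gene Slc17a6 (−2.25), the synaptic organizer gene Cbln2 (−2.61) and Tacr3. Of 12 inhibitory markers tested, 10 were called lower, against the same 13.6% of all genes, and the median of the 12 was −1.99. Those called included the GABA synthesis gene Gad2 (−3.50), the glycine transporter gene Slc6a5 (−3.31) and Nos1 (−2.71). None of either list was called in SCI + SCS against SCI in edgeR, where the medians were 1.004 and 1.24. At an unadjusted p under 0.05 edgeR gave 9 excitatory and 11 inhibitory markers higher, against 13.3% of all genes. DESeq2 called 6 and 7 of them, against 2.54% of all genes it tested. Against Sham, the excitatory genes Slc17a6 (−1.22) and Cbln2 (−1.31) were called lower in the stimulated cords in CPM. So were the inhibitory genes Slc6a5 (−1.99), Gad2 (−1.81) and the vesicular transporter gene Slc32a1 (−1.26). Of all genes, 5.44% were called lower in that comparison. Without Sham replicate 2 there was 1 such call in each list. No test was made of whether one class fell more than the other.

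**Figure D4:**
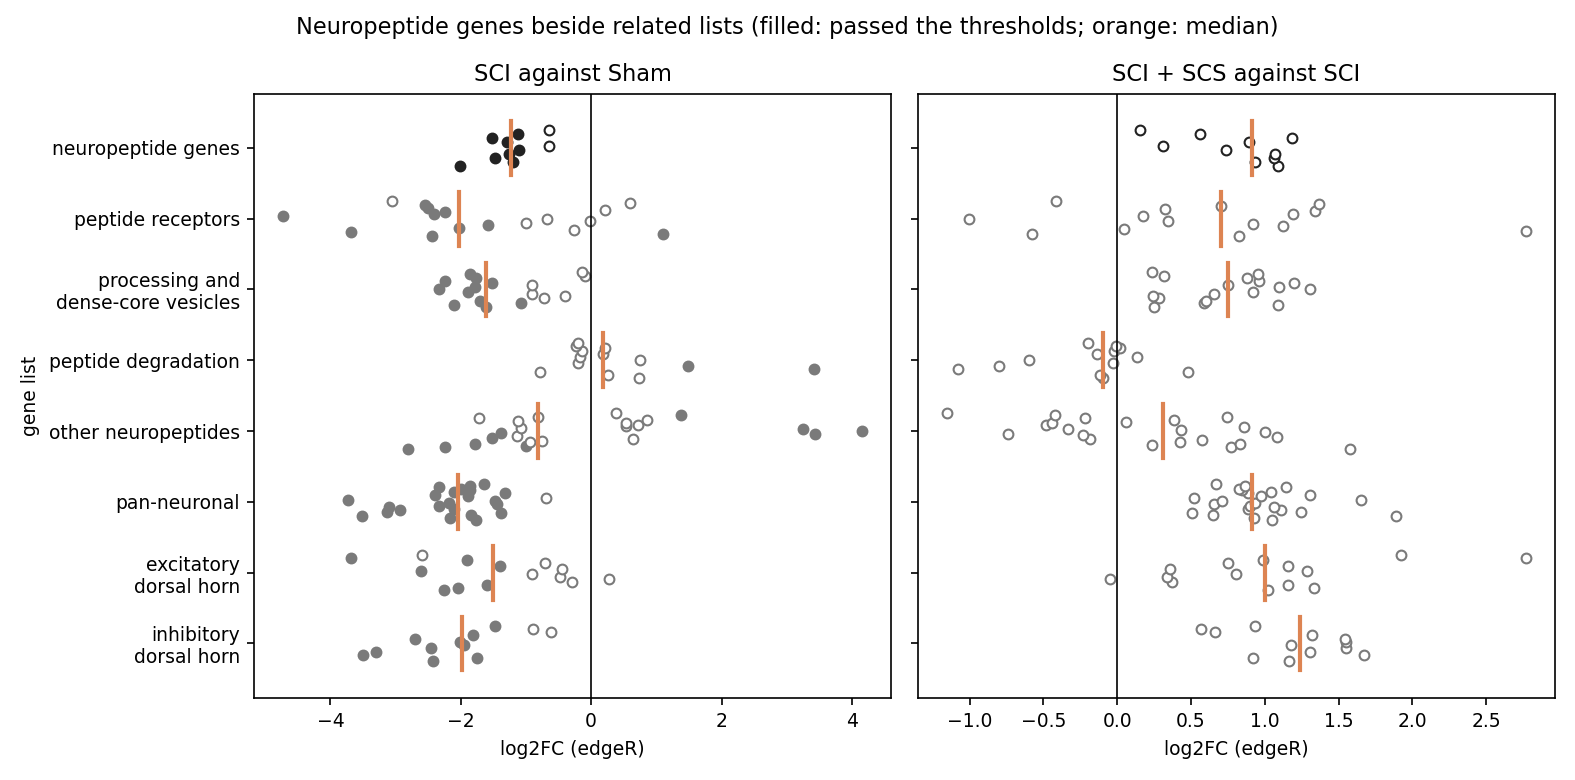
The log2FC of each tested gene (x axis, edgeR) by gene list (y axis) in SCI against Sham (left) and SCI + SCS against SCI (right), with filled points past both limits and orange lines at list medians. On the left the neuropeptide median of −1.23 lies between that of all genes (0.02) and the pan-neuronal median of −2.05, and on the right both medians are 0.91 and every point is open; scaled on the pan-neuronal list, the members were positive on the left and 6 were negative on the right.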

How the data were processed

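Libraries were made from poly(A) RNA and sequenced as paired ends. The submitters' processing notes name fastp 0.23.2, HISAT2 2.2.1 and the mRatBN7.2 build; the counting program and strand setting are not given in the sources used here. The authors deposited a table of read counts per gene and a table of FPKM. The counts were tested with edgeR 4.0.16 (quasi-likelihood, TMM, filterByExpr, the 6 libraries of each comparison), with SE taken as the log2FC over the root of F, after a test on simulated data. DESeq2 1.42.0, limma 3.58.1 on log2(FPKM + 1) and log2(FPKM + 0.1), other filters and scalings, a replicate block and each library left out were alternatives. Adding 1 to FPKM understates changes of low genes more than adding 0.1. Likeness was Pearson's r of log2(CPM + 0.5) over genes of at least 1 mean CPM. The text names all members, all called receptors, up to 3 called genes with the largest change per other list and comparison, and the most like gene, which for Tac3 is not reported here. Grpr, Scn10a and the Tacr3 difference with stimulation were named after their values were seen. The members and lists were chosen with earlier results of these data known. The labels number the rats within groups. Each p-value sets a group difference against the estimated spread between libraries, with 3 libraries per group. An exact permutation test of 3 against 3 cannot go below 0.1. R 4.3.3 was used.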

Additional observations from a re-analysis of the deposited data

How the results depend on the processing

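The 8 members called lower in SCI against Sham were 8 under DESeq2 as well, between 6 and 9 when 1 library was left out, 7 without the filter on low counts and 6 in limma on log2(FPKM + 1). The scaling on pan-neuronal transcripts turned the sign of all 10 members in SCI against Sham, to 0.11 for Tac1, 0.86 for Tac3, 0.59 for Penk, 0.86 for Pdyn, 0.92 for Sst, 1.38 for Npy, 0.83 for Nts, 0.58 for Grp, 0.90 for Cck and 1.19 for Gal, with 2 called. In SCI + SCS against Sham it turned them to 0.12 for Tac1, 0.78 for Tac3, 0.67 for Penk, 0.86 for Pdyn, 0.68 for Sst, 0.71 for Npy, 0.65 for Nts, 0.76 for Grp, 0.53 for Cck and 0.50 for Gal. In SCI + SCS against SCI it turned Tac3 (−0.078), Sst (−0.24), Npy (−0.67), Nts (−0.16), Cck (−0.37) and Gal (−0.70). These shifts follow from the scaling itself, which sets neuronal transcripts level between libraries.

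Members called in SCI + SCS against SCI were 0 in edgeR, 4 in DESeq2, 4 in DESeq2 on all 9 libraries (added after seeing the data), and 0 to 2 with 1 library left out, the 2 being without SCI + SCS replicate 1. With 1 library left out, the log2FC of Gal in that comparison ran from −0.12 to 0.72 and that of Pdyn in SCI + SCS against Sham from −0.32 to 0.024. In SCI + SCS against Sham, 0 members were called, 1 without a fold change limit, and 0 to 1 with 1 library left out.

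Over all genes, SCI against Sham gave 4800 calls (2385 higher and 2415 lower), 2649 in limma on log2(FPKM + 1), 8796 without a fold change limit and 14627 on the pan-neuronal scaling (14502 higher and 125 lower). SCI + SCS against SCI gave 1 call in edgeR, 988 genes past the fold limit at an unadjusted p under 0.05, 759 calls in DESeq2, 662 in DESeq2 on all 9 libraries, 20 and 19 in limma with pseudocounts of 1 and 0.1, 0 with at least 10 counts in every library, 0 with rows of an identifier summed, 8720 on the pan-neuronal scaling (22 higher and 8698 lower), and 0 to 123 with 1 library left out, the highest without SCI + SCS replicate 1. SCI + SCS against Sham gave 2068, 921 in limma on log2(FPKM + 1), 5710 without a fold change limit, 7744 on the pan-neuronal scaling, and 950 to 2891 with 1 library left out (950 without SCI + SCS replicate 1, 1043 without Sham replicate 2 and 1348 without SCI + SCS replicate 2). The cause of these differences was not tested. The replicate numbers were not treated as pairs in the main fits. The same-numbered correlations ran from −0.33 to 0.24, and with 3 libraries per group they cannot settle whether the numbers pair the rats. A replicate block gave 4656, 0 and 715 calls in the 3 comparisons, and 8, 0 and 0 members. With DESeq2 size factors (added after seeing the data) it gave 0 and 698 calls in the latter ones. All members had reads in every library, and runs at matched depth were not made.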
